A study of Oryza sativa with 6 samples.

Results

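MADS-box genes encode transcription factors that bind DNA through the MADS domain, and they were chosen here as all genes whose deposited Pfam annotation holds the SRF-type MADS domain (PF00319). There were 74 such genes among the 61955 genes of the table. The choice used no expression value. RNA had been sequenced from embryos of 2 near-isogenic rice lines, with 3 samples of NIL-D (EG) and 3 of NIL-X (CG), all collected at about day 15 after flowering. NIL-D carries the giant embryo (GE) allele of the local indica rice Dapeimi and is labelled with the genotype CMP-/-, while NIL-X is its normal-embryo partner, labelled wild type; both descend from a cross between Dapeimi and a normal-embryo restorer line. Each group is a single line, so the GE allele and any other segment in which the lines differ cannot be told apart. By the methods, each of 3 field plots held both lines and gave 1 RNA sample of each, and the labels do not tie a replicate number to a plot. Values are TPM, transcript abundances corrected for gene length, with an equal total in each sample, and the number of reads behind them is unknown.

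Type II (MIKC) MADS-box proteins carry, beside the MADS domain, a keratin-like K-box through which they form dimers and larger complexes, and most of the known regulators of floral organ identity and flowering time are of this type. Type I proteins lack the K-box, and several are known from Arabidopsis to act in the female gametophyte and the early endosperm. In rice, floral organs are specified by combinations of class A, B, C, D and E genes, and members of the Bsister group act in the ovule and the developing seed. Names below are those of the best protein hits in the annotation, with "-like" where the hits differ or where several genes share a hit that only 1 of the protein databases gives. Reads of close copies may be split between them.

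Of the 74 MADS-box genes, 56 were above 0 TPM in at least 1 sample and 18 were listed at 0 in all 6. A mean of at least 0.5 TPM over the 6 samples, the minimum for testing, was reached by 22 genes (29.7%), against 34.7% of all genes. With a K-box, 19 of the 37 genes reached the minimum (51.4%), against 3 of the 37 genes without one (8.11%). Those 3 had best hits to OsMADS14, which is not a type I gene, or to OsMADS51, placed here by its number in the flowering-time group FLC-like. The split by K-box is therefore not one of type I against type II. For comparison, 71.7% of the 92 homeobox genes, 38.8% of the 103 WRKY genes and 36.5% of the 148 NAC genes reached the minimum. The tested MADS-box genes had a median mean level of 4.97 TPM, against 9.82 TPM for all tested genes. Together, the 74 genes summed to 196, 225 and 306 TPM in replicates 1 to 3 of NIL-D, against 238, 249 and 222 TPM in those of NIL-X. The lines overlapped, and NIL-D replicate 3 held the highest sum. The 4 genes with the highest mean levels, OsMADS27, an OsMADS14-like gene, OsMADS22 and an OsMADS27-like gene, made up 50.9% to 71.2% of these sums.

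**Figure D1:**
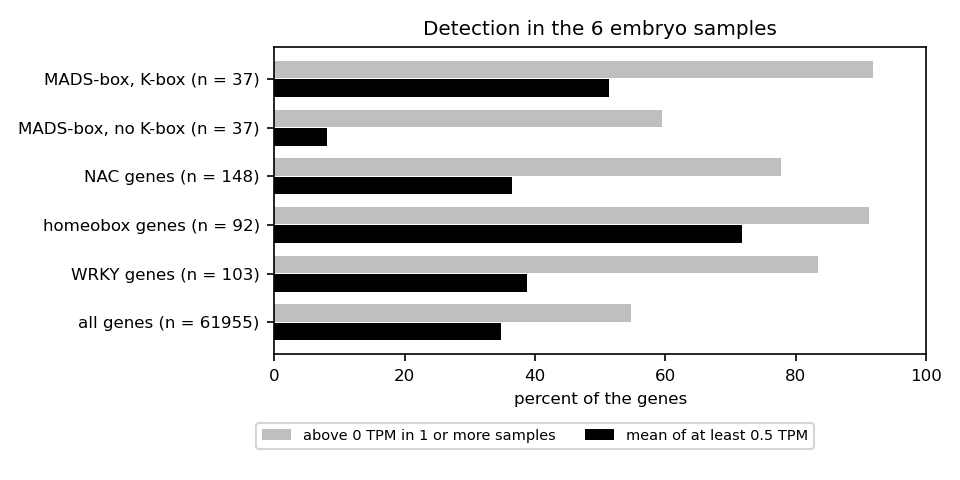
Share of the genes above 0 TPM in 1 or more samples (grey) and with a mean of at least 0.5 TPM over the 6 samples (black), in percent, for MADS-box genes with and without a K-box, 3 other transcription factor families and all genes. The black bar of MADS-box genes without a K-box, at 8.11%, is the shortest.

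In the comparison of NIL-D with NIL-X, 1 MADS-box gene, OsMADS32, was called lower in NIL-D and none was called higher. Calls needed a limma adjusted p-value under 0.05 together with a log2 fold change of at least 1 in size, in a fit over all 21500 tested genes on log2(TPM + 1). Of the 22 tested MADS-box genes, 1 was called, against 0.642% of all tested genes in both directions and 0.377% in the direction lower in NIL-D. An unadjusted limma p-value below 0.05 was found for 5 of the 22 genes, 1 higher and 4 lower in NIL-D, against 15.6% of all tested genes. All 3 NIL-D values lay above or below all 3 NIL-X values in 8 of the 22 genes, against 24.3% of all tested genes. NIL-D was above in 3 of these genes and below in 5, against 4.53% and 19.7% of all tested genes. OsMADS17-like, above, reached the minimum for testing only through NIL-D, and OsMADS26-like, below, only through NIL-X, so their directions were tied to the filter. OsMADS26-like was also 1 of the 4 genes lower in NIL-D at an unadjusted limma p-value below 0.05. The median log2 fold change of the MADS-box genes was -0.017, and that of all tested genes was -0.15. After median-ratio rescaling, which moved the median of all genes by 0.15, the median of the MADS-box genes was 0.13, so no direction is given for the family.

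**Figure D2:**
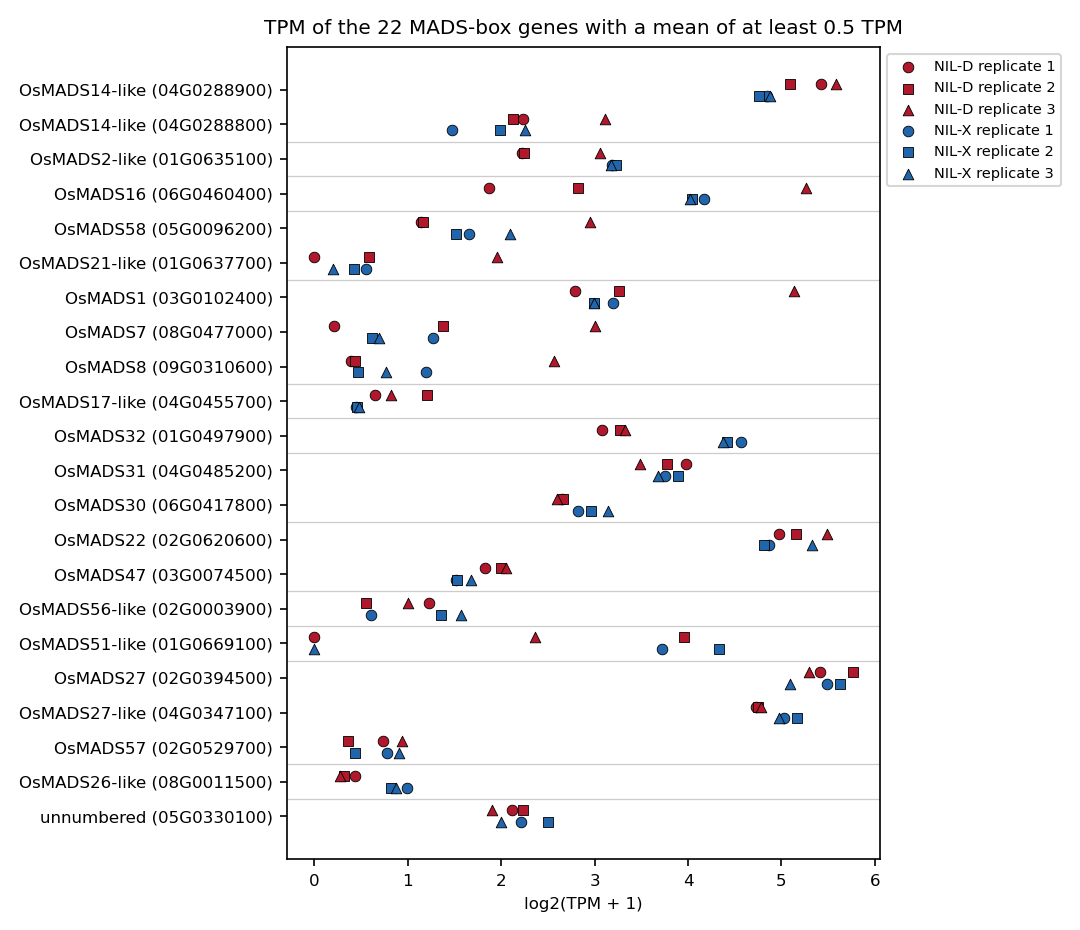
TPM of each sample on the log2(TPM + 1) scale for the 22 tested MADS-box genes, ordered by subfamily (grey lines), with NIL-D in red above NIL-X in blue and the replicate shown by the symbol. OsMADS32 is lower in all NIL-D samples, and the red triangle of NIL-D replicate 3 stands to the right in OsMADS16, OsMADS58, OsMADS21-like, OsMADS1, OsMADS7 and OsMADS8.

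OsMADS32 (OsZS_01G0497900, chromosome 1) is a MIKC gene that takes part in floral organ identity in rice and belongs to none of the classical classes. It was at 7.43, 8.68 and 9.04 TPM in replicates 1 to 3 of NIL-D, against 22.75, 20.37 and 19.80 TPM in those of NIL-X. All NIL-D samples were low, all NIL-X samples were high, and the samples within each line lay close together. NIL-D averaged 8.38 ± 0.85 TPM and NIL-X 20.97 ± 1.56 TPM (SD, n = 3 each), a log2 fold change of -1.23 (SE 0.14 and adjusted p = 0.0184 by limma). With the median-ratio rescaling the log2 fold change was -1.07 and with quantile normalization -1.08, and the gene stayed called in both. It was not called when any sample other than NIL-D replicate 3 was left out (limma adjusted p between 0.0755 and 0.134) or with the replicate number as a block (limma adjusted p = 0.112), while its log2 fold change stayed between -1.28 and -1.15 in the 6 fits that left out 1 sample. As these are bulk samples, fewer cells that express a gene and less RNA of it per cell cannot be told apart.

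The second pattern was within NIL-D. In NIL-D replicate 3, 7 of the 22 tested MADS-box genes were at least 2 times as high as in both other NIL-D samples, against 6.19% of all tested genes. The 7 genes were OsMADS16, OsMADS1, OsMADS7, OsMADS8, OsMADS58, OsMADS21-like and the OsMADS14-like gene OsZS_04G0288800, so 6 of them had a best hit to a class B, C, D or E gene. OsMADS21-like reached the minimum for testing only through NIL-D replicate 3. As the choice of these genes implies, their summed level was high in that sample. It was 13.97, 21.75 and 100.7 TPM in replicates 1 to 3 of NIL-D, against 32.3, 28.5 and 30.8 TPM in those of NIL-X. The other 67 MADS-box genes summed to 182, 204 and 205 TPM in NIL-D, against 206, 220 and 192 TPM in NIL-X. In each of the other 5 samples, 0 or 1 tested MADS-box gene stood out upwards from its line in this way. This rule on single samples was chosen after the values had been seen.

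Other values also set NIL-D replicate 3 apart. Of all tested genes, 14.2% were in it at most 0.5 times as high as in both other NIL-D samples, and 6.19% at least 2 times as high, while in the other 5 samples the first share ran from 3.01% to 4.41% and the second from 2.13% to 3.06%. Of the embryo markers, the 5 oleosins, proteins of oil bodies, summed to 33996 to 37369 TPM in NIL-D, against 33720 to 36596 TPM in NIL-X. The peroxygenases summed to 4329 to 6183 TPM in NIL-D, against 5103 to 5629 TPM in NIL-X, and the regulator VP1 was at 171 to 214 TPM in NIL-D, against 199 to 208 TPM in NIL-X, so that these 3 overlapped between the lines. The Em-type LEA gene, of late embryogenesis, was at 6101 to 9934 TPM in NIL-D, against 13030 to 15257 TPM in NIL-X, while the embryo globulins went the other way, with 37134 to 48784 TPM in NIL-D, against 27112 to 35170 TPM in NIL-X. Of the endosperm lists, the 16 prolamins, storage proteins, summed to 4767, 6985 and 3043 TPM in replicates 1 to 3 of NIL-D, against 4925, 11320 and 12870 TPM in those of NIL-X. The glutelins summed to 1884, 3045 and 1281 TPM in NIL-D, against 2718, 5209 and 5154 TPM in NIL-X. The granule-bound starch synthases, at 224, 332 and 266 TPM in NIL-D, against 256, 445 and 464 TPM in NIL-X, were lowest in NIL-D replicate 1. The pollen list of 33 allergens and beta-expansins summed to 230, 207 and 110 TPM in NIL-D, against 231, 189 and 182 TPM in NIL-X. Of the green tissue lists, the RuBisCO small chains summed to 551, 478 and 226 TPM in NIL-D, against 506, 620 and 418 TPM in NIL-X, and the chlorophyll a-b binding proteins summed to 4.34 to 5.53 TPM in NIL-D, against 9.65 to 11.15 TPM in NIL-X. The prolamin, glutelin, RuBisCO, chlorophyll a-b and pollen lists were each lowest in NIL-D replicate 3, with 13 of 16, 13 of 14, 2 of 5, 3 of 13 and 9 of 33 genes at a mean above 1 TPM. Of the embryo markers, the peroxygenases, the globulins and VP1 were each highest of all samples in NIL-D replicate 3, at 6183, 48784 and 214 TPM. Within NIL-D, that sample was also the highest for the Em-type LEA gene, at 9934 TPM, and the lowest for the oleosins, at 33996 TPM. The part of these differences in the pattern of the MADS-box genes was not tested.

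**Figure D3:**
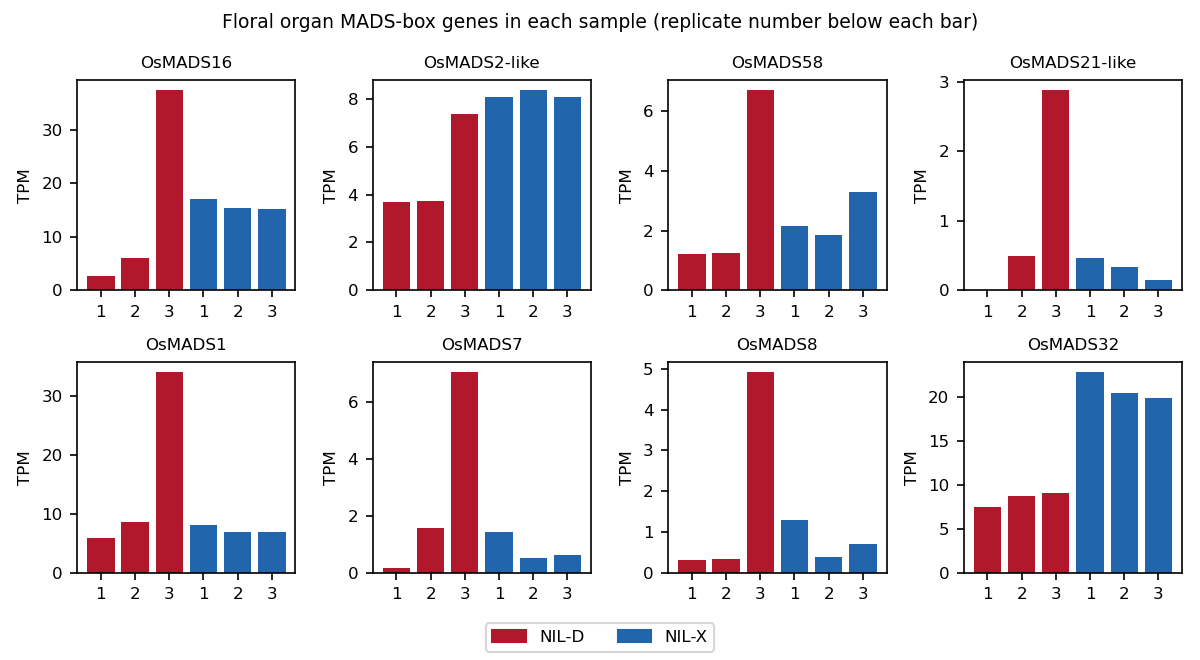
TPM in each sample, NIL-D in red on the left and NIL-X in blue on the right, for 7 MADS-box genes of classes B to E and for OsMADS32; each panel has its own axis from 0. NIL-D replicate 3 has the tallest bar of the 6 samples in 6 panels, while in OsMADS2-like and OsMADS32 all NIL-D bars are below all NIL-X bars.

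Class B genes specify lodicules and stamens. OsMADS16 (OsZS_06G0460400, chromosome 6), the AP3-type gene known as SUPERWOMAN1, was at 2.66, 6.10 and 37.49 TPM in replicates 1 to 3 of NIL-D, against 17.07, 15.45 and 15.24 TPM in those of NIL-X. NIL-D replicates 1 and 2 lay below all NIL-X samples and replicate 3 above all of them, so the lines overlapped. Over all samples the log2 fold change was -0.76 (SE 0.79 and adjusted p = 0.665 by limma). Without NIL-D replicate 3 it was -1.73 (SE 0.28 and adjusted p = 0.0335 by limma), and OsMADS16 was then called lower in NIL-D. That fit leaves out the sample in which the gene had been picked as high, so the call depends on this choice. Without NIL-D replicate 1 the log2 fold change of OsMADS16 was -0.032 (SE 0.67 and adjusted p = 0.987 by limma). Its PI-type partner OsMADS2-like (OsZS_01G0635100, chromosome 1) was at 3.68, 3.75 and 7.36 TPM in NIL-D, against 8.09, 8.37 and 8.07 TPM in NIL-X. All NIL-D values were below all NIL-X values, with replicate 3 the closest to NIL-X. The log2 fold change was -0.69 (SE 0.25 and adjusted p = 0.279 by limma), and without NIL-D replicate 3 it was -0.96 (SE 0.13 and adjusted p = 0.0229 by limma), just inside the fold change limit. Without that sample, 2 of the 21 MADS-box genes tested were called, OsMADS32 and OsMADS16, both lower in NIL-D, against 2.84% of all genes tested then (1.73% lower in NIL-D). A second gene with a best hit to OsMADS2, OsZS_12G0278000, is 342 bp long and was listed at 0 in all samples.

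Class C and D genes specify stamens, carpels and ovules. OsMADS58 (OsZS_05G0096200, chromosome 5) was at 1.21, 1.24 and 6.71 TPM in replicates 1 to 3 of NIL-D, against 2.15, 1.87 and 3.28 TPM in those of NIL-X. As for OsMADS16, NIL-D replicates 1 and 2 were below and replicate 3 was above all NIL-X samples. The log2 fold change over all samples was -0.0066 (SE 0.51 and adjusted p = 0.996 by limma), and without NIL-D replicate 3 it was -0.60 (SE 0.23 and adjusted p = 0.169 by limma). OsMADS21-like (OsZS_01G0637700, chromosome 1), of the ovule-related class D, was at 0.00, 0.50 and 2.88 TPM in NIL-D, against 0.47, 0.34 and 0.15 TPM in NIL-X. Replicate 3 of NIL-D was the highest sample and replicate 1 the lowest, so the lines overlapped (log2 fold change 0.45, SE 0.49 and adjusted p = 0.674 by limma). OsMADS3 and OsMADS13, the other class C and D genes above 0 in all samples, stayed below the minimum for testing, with at most 0.69 TPM in any sample.

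Class E (SEPALLATA) proteins join the other classes in complexes, and OsMADS1, also called LEAFY HULL STERILE1, controls the lemma, the palea and the floral meristem. OsMADS1 (OsZS_03G0102400, chromosome 3) was at 5.91, 8.60 and 34.03 TPM in replicates 1 to 3 of NIL-D, against 8.15, 6.96 and 6.99 TPM in those of NIL-X. NIL-D replicates 1 and 2 lay on either side of the NIL-X values, and replicate 3 was 4.69 times the mean of the first 2. OsMADS7 (OsZS_08G0477000, chromosome 8) was at 0.16, 1.59 and 7.03 TPM in NIL-D, against 1.42, 0.53 and 0.61 TPM in NIL-X. OsMADS8 (OsZS_09G0310600, chromosome 9) was at 0.31, 0.35 and 4.91 TPM in NIL-D, against 1.29, 0.38 and 0.70 TPM in NIL-X. In this pair of closely related genes too, NIL-D replicate 3 was the highest sample, at 8.03 times the mean of NIL-D replicates 1 and 2 for OsMADS7 and 14.9 times for OsMADS8. For OsMADS7, NIL-D replicate 2 also lay above all NIL-X values. The log2 fold changes were 0.67 for OsMADS1 (SE 0.57), 0.67 for OsMADS7 (SE 0.67) and 0.32 for OsMADS8 (SE 0.60), with limma adjusted p-values of 0.591, 0.647 and 0.822. Without NIL-D replicate 3 all 3 changed sign, to -0.036, -0.065 and -0.40. OsMADS5 and the pair of OsMADS34-like genes stayed at or below 0.22 TPM, and that pair, OsZS_03G0532800 and OsZS_03G0625200, has the same length of 1790 bp and the same value in every sample.

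Among AP1/FUL genes, which act in the floral transition and the floral meristem, 1 stood at a high level. The OsMADS14-like gene OsZS_04G0288900 (chromosome 4), annotated as a truncated protein and lacking a K-box, was at 42.02, 33.11 and 46.98 TPM in replicates 1 to 3 of NIL-D, against 27.74, 26.04 and 28.42 TPM in those of NIL-X. All NIL-D values were above all NIL-X values, and it had the smallest p-value among the MADS-box genes higher in NIL-D (log2 fold change 0.54, SE 0.15 and adjusted p = 0.206 by limma). Its neighbour in the gene order, OsMADS14-like OsZS_04G0288800, was at 3.72, 3.37 and 7.63 TPM in NIL-D, against 1.78, 2.98 and 3.79 TPM in NIL-X. Those lines overlapped, and the log2 fold change of 0.58 (SE 0.33) had a limma adjusted p-value of 0.434. Another gene with a best hit to OsMADS14, OsZS_03G0532700, has a DnaJ domain and no MADS domain in its annotation and is not among the 74. Whether its model of 3640 bp also holds OsMADS14 itself was not tested.

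OsMADS18 (OsZS_07G0416200, chromosome 7) was named after its values had been seen, for its place. It lies 7 genes from OsZS_07G0416900, the gene number given for GE. It was at 0.06, 0.06 and 0.22 TPM in replicates 1 to 3 of NIL-D, against 0.36, 0.30 and 0.16 TPM in those of NIL-X, below the minimum for testing. The lines overlapped through NIL-D replicate 3 and NIL-X replicate 3.

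In the AGL6 group, which acts with class E genes in floral meristems, OsMADS17-like (OsZS_04G0455700, chromosome 4) was at 0.57, 1.30 and 0.77 TPM in replicates 1 to 3 of NIL-D, against 0.36, 0.37 and 0.39 TPM in those of NIL-X. All values of NIL-D were above those of NIL-X, at a low level in both lines. The log2 fold change was 0.43 (SE 0.21 and adjusted p = 0.376 by limma), and with a pseudocount of 0.1 in place of 1 it was 0.98, still not called. OsMADS6, the other member of this group, reached at most 0.21 TPM.

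No Bsister gene was called. OsMADS31 (OsZS_04G0485200, chromosome 4) was at 14.72, 12.74 and 10.20 TPM in replicates 1 to 3 of NIL-D, against 12.49, 13.87 and 11.84 TPM in those of NIL-X. The lines overlapped, and the log2 fold change was -0.030 (SE 0.17 and adjusted p = 0.945 by limma). OsMADS30 (OsZS_06G0417800, chromosome 6) was at 5.28, 5.35 and 5.06 TPM in NIL-D, against 6.09, 6.78 and 7.82 TPM in NIL-X. The 3 values of NIL-D were below all of NIL-X, but OsMADS30 was not called (log2 fold change -0.34, SE 0.15 and adjusted p = 0.347 by limma). OsMADS29, a regulator of nucellus degradation and seed development in rice, was named after its values had been seen. It was at 0.05, 0.10 and 0.65 TPM in NIL-D, against 0.44, 0.18 and 0.15 TPM in NIL-X, again with NIL-D replicate 3 the highest.

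Genes of the flowering-time groups SVP, SOC1 and FLC-like were not called. The SVP-type gene OsMADS22 (OsZS_02G0620600, chromosome 2) was at 30.42, 34.79 and 43.95 TPM in replicates 1 to 3 of NIL-D, against 28.19, 27.23 and 39.16 TPM in those of NIL-X. Replicate 3 was the highest in both lines, and the lines overlapped (log2 fold change 0.20, SE 0.20 and adjusted p = 0.643 by limma). OsMADS47 (OsZS_03G0074500, chromosome 3), a repressor of brassinosteroid responses in rice, was at 2.56, 3.01 and 3.15 TPM in NIL-D, against 1.86, 1.88 and 2.20 TPM in NIL-X. Its values did not overlap, with NIL-D above (log2 fold change 0.39, SE 0.17 and adjusted p = 0.328 by limma). A second OsMADS47 gene, OsZS_03G0624800, has the same length of 1458 bp and reached at most 0.61 TPM. OsMADS56-like (OsZS_02G0003900, chromosome 2), of the SOC1 type, ran from 0.47 to 1.34 TPM in NIL-D and from 0.52 to 1.98 TPM in NIL-X. OsMADS51-like (OsZS_01G0669100, chromosome 1), a gene model of 198 bp, was at 0.00, 14.49 and 4.13 TPM in NIL-D, against 12.21, 19.18 and 0.00 TPM in NIL-X. Both lines thus held a sample listed at 0, and its log2 fold change of -0.58 had an SE of 1.38.

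The AGL17 group, whose rice members include genes of root development and nitrate response, held the highest MADS-box level. OsMADS27 (OsZS_02G0394500, chromosome 2) was at 41.49, 53.46 and 38.27 TPM in replicates 1 to 3 of NIL-D, against 43.94, 48.43 and 33.15 TPM in those of NIL-X. The lines overlapped (log2 fold change 0.087, SE 0.19 and adjusted p = 0.852 by limma). OsMADS27-like (OsZS_04G0347100, chromosome 4) was at 25.44, 25.83 and 26.51 TPM in NIL-D, against 31.62, 34.99 and 30.51 TPM in NIL-X. All its NIL-D values were below the NIL-X values, with a SD of 0.54 TPM in NIL-D, against 2.33 TPM in NIL-X (log2 fold change -0.31, SE 0.11 and adjusted p = 0.281 by limma). OsMADS57 (OsZS_02G0529700, chromosome 2), a regulator of tillering in rice, ran from 0.28 to 0.92 TPM in NIL-D and from 0.35 to 0.88 TPM in NIL-X.

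In the AGL12 group, OsMADS26-like (OsZS_08G0011500, chromosome 8), which has been linked to stress responses in rice, was at 0.35, 0.25 and 0.21 TPM in replicates 1 to 3 of NIL-D, against 0.99, 0.77 and 0.83 TPM in those of NIL-X. Every NIL-D value was below every NIL-X value, at the lowest mean level of the tested genes. The log2 fold change was -0.55 (SE 0.18 and adjusted p = 0.247 by limma). Since a pseudocount of 1 exceeds these values, the log2 fold change grew to -1.39 with a pseudocount of 0.1, where the gene was still not called (limma adjusted p = 0.261).

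**Figure D4:**
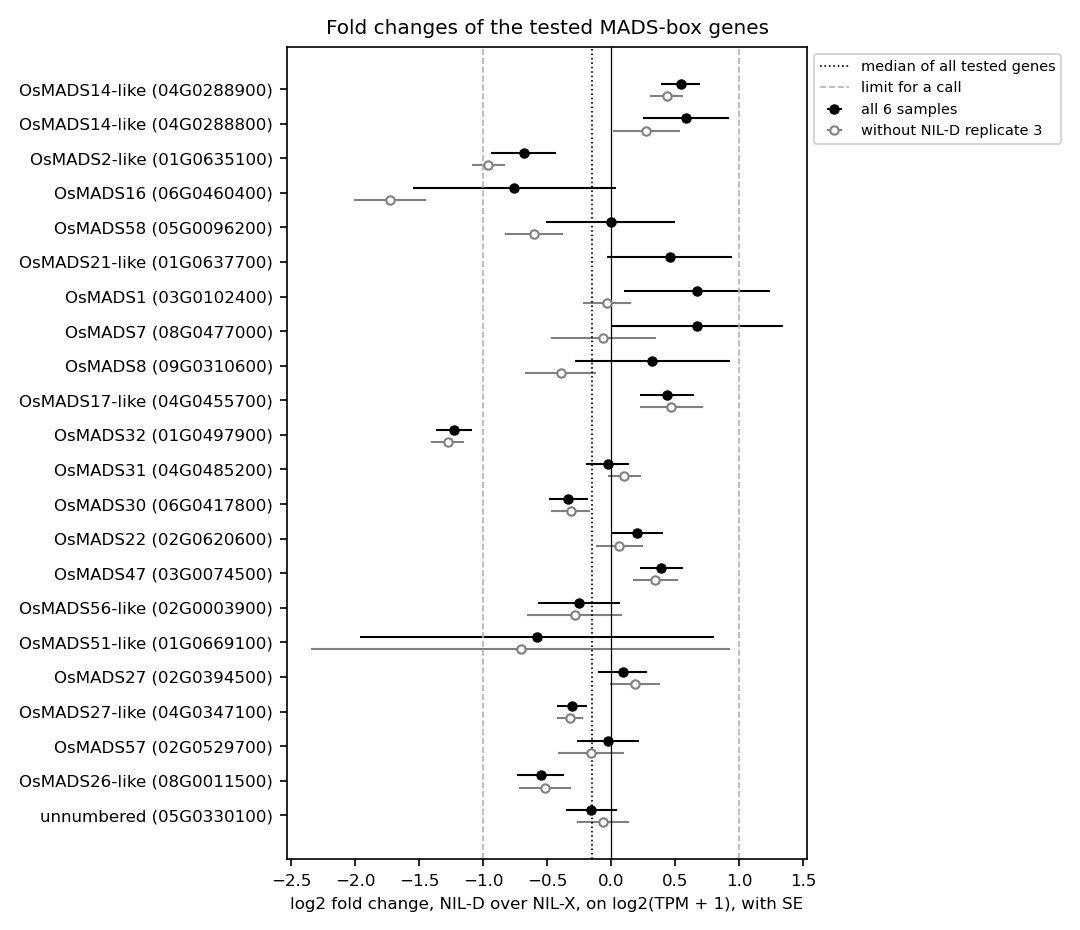
Log2 fold change of NIL-D over NIL-X with its SE for the 22 tested MADS-box genes, with all 6 samples (black) and without NIL-D replicate 3 (open grey; OsMADS21-like then fell below the minimum for testing). Solid line, 0; dotted line, median of all tested genes at -0.15; dashed lines, limits for a call at -1 and 1. OsMADS32 lies beyond the limit in both fits, and OsMADS16 in the fit without that sample.

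The remaining tested gene, OsZS_05G0330100 (chromosome 5), has a K-box but no rice OsMADS number, and its 3608 bp model has a best Swiss-Prot hit to a receptor-like kinase. It ran from 2.74 to 3.71 TPM in NIL-D and from 3.0 to 4.68 TPM in NIL-X, and the lines overlapped.

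The 52 MADS-box genes below the minimum held 34 that were above 0 in some sample, with at most 0.69 TPM. Of these 34 genes, 7 were above 0 in all 6 samples, 5 in samples of NIL-D alone and 4 in samples of NIL-X alone. No share of all genes was taken for the counts in a single line. At levels this low, those counts are not read as a difference between the lines. The 29 genes with neither a K-box nor a rice number included best hits to Arabidopsis AGL61, AGL62 and AGL80, type I genes known from the central cell and the early endosperm. Other best hits among them were to AGL65, AGL66 and ANR1, which are not type I genes, so the 29 are not a list of type I genes. None of the 29 reached the minimum, 13 were listed at 0 throughout and the highest mean among them was 0.17 TPM.

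**Figure D5:**
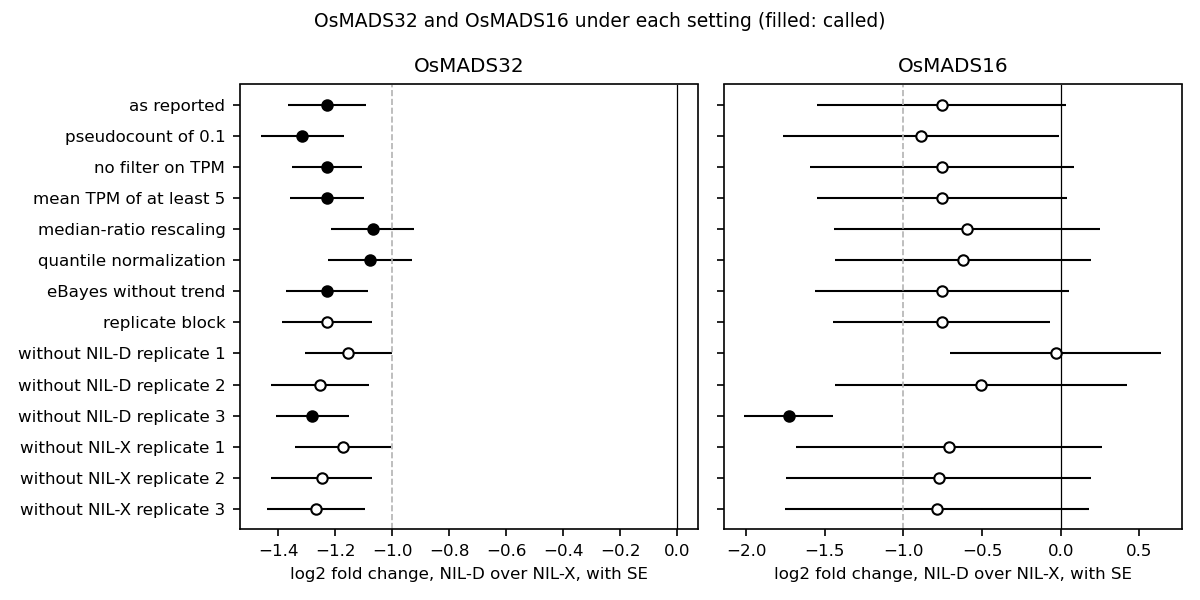
Log2 fold change of NIL-D over NIL-X with its SE for OsMADS32 (left) and OsMADS16 (right) as reported and in the other fits, with filled circles where the gene was called. OsMADS32 stayed between -1.32 and -1.07, while OsMADS16 ran from -1.73 without NIL-D replicate 3 to -0.032 without NIL-D replicate 1.

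A further list of genes was matched by name. It held Polycomb (PRC2) subunits, which silence many MADS-box genes through histone methylation, flowering regulators, floral partners and vacuolar processing enzymes, which process seed storage proteins. Of these 44 genes, 26 were tested and 0 were called by limma, against 0.642% of all tested genes. An unadjusted limma p-value below 0.05 was found for 6 of the 26, all lower in NIL-D, against 15.6% of all tested genes in both directions and 12.0% lower in NIL-D, and the median log2 fold change was -0.19 beside -0.15 for all tested genes. The smallest adjusted p-value was that of OsZS_03G0623700, with a best hit to LEUNIG_HOMOLOG, a relative of the corepressor LEUNIG, which MADS-box proteins recruit in Arabidopsis. It was at 11.23, 11.98 and 11.74 TPM in replicates 1 to 3 of NIL-D, against 20.26, 18.49 and 18.32 TPM in those of NIL-X, with no overlap (log2 fold change -0.66, SE 0.12 and adjusted p = 0.0852 by limma). OsZS_02G0600700, with the same best hit, had a log2 fold change of -0.54 (limma adjusted p = 0.208). OsZS_04G0390000, also with that hit, was at -0.076 (limma adjusted p = 0.861), and its lines overlapped. DROOPING LEAF (OsZS_03G0102300), the YABBY gene of carpel identity that neighbours OsMADS1, was at 1.40, 2.15 and 1.15 TPM in NIL-D, against 3.19, 4.69 and 2.79 TPM in NIL-X. The values of DROOPING LEAF did not overlap (log2 fold change -0.82, SE 0.24 and adjusted p = 0.212 by limma), and NIL-D replicate 3 was the lowest sample, unlike for OsMADS1. The florigen partner FD (OsZS_02G0618900) was at 0.62, 0.92 and 1.23 TPM in NIL-D, against 3.21, 1.80 and 3.64 TPM in NIL-X (log2 fold change -0.99, SE 0.26 and adjusted p = 0.180 by limma). The 8 tested genes of the Polycomb list had log2 fold changes between -0.38 and -0.053, with no adjusted p-value under 0.279, in a fit where 69.9% of all tested genes were below 0. One of them, OsZS_09G0337700, also has a protein hit to a Mediator subunit.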

How the data were processed

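RNA from embryos of 3 NIL-D and 3 NIL-X samples was analysed, with lines taken from the strain labels. By the study's methods, reads were trimmed with SeqPrep and Sickle, mapped to ZS97RS3 with TopHat and quantified with RSEM. The authors deposited TPM with 2 decimals; their line means and gene lengths were not tested. No read counts were used, so no counting error is given. The labels also name another aligner and a mouse build, which were set aside.

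The lines were compared by limma 3.58.1 (R 4.3.3; lmFit and trended eBayes) on log2(TPM + 1), over genes averaging 0.5 TPM or more, with Benjamini-Hochberg adjustment. In simulated data holding 200 genes changed by a log2 value of 1.5 among 21500 genes, 129 were recovered with 6 false calls. The changed genes were drawn only above a mean level higher than the minimum for testing. The recovery therefore does not cover the tested genes at low TPM. Python 3.11.15 was used elsewhere.

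Every MADS-box gene at the minimum was described. Genes below it were to be named where alone above 0 in a subfamily or at 1 TPM in a sample, and none was. Members and lists were chosen with earlier results of these data known. Alternatives were a pseudocount of 0.1, no filter, a minimum mean of 5 TPM, quantile normalization, median-ratio rescaling, no trend, a replicate block, adjusted p alone and leaving out each sample. Sequences were not used here.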

Additional observations from a re-analysis of the deposited data

How the results depend on the processing

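Of all tested genes, 138 were called as reported, 57 with a mean TPM of at least 5, and 37 to 611 when 1 sample was left out. The called MADS-box genes numbered 1 as reported and 0 to 2 when 1 sample was left out, with 2 without NIL-D replicate 3 and 0 without any other sample. With the replicate number as a block, 0 MADS-box genes and 43 genes in all were called, and OsMADS32 had a limma adjusted p of 0.112. The same-number correlations of the samples' deviations were 0.0164, 0.202 and 0.199, and those between different numbers ran from -0.235 to 0.0593. The values of 0.202 and 0.199 were thus the highest, and these correlations do not settle whether the numbers mark pairs. As the labels tie no number to a plot, the reported fit did not use them as pairs. The genes whose lines did not overlap numbered 8 as reported, 5 with a mean TPM of at least 5, where 11 were tested, and 7 to 11 when 1 sample was left out. With fewer samples, the lines lie apart more easily by order alone. The share of all tested genes was not taken for these alternatives, so their counts are not read as a change. The median log2 fold change of the MADS-box genes ran from -0.16 to 0.21 when 1 sample was left out. It was -0.31 with a mean TPM of at least 5, and 0 of the listed regulators and partners were called in any fit. Under median-ratio rescaling and quantile normalization, small log2 fold changes turned positive: OsMADS31 (0.13 and 0.14), OsMADS58 (0.12 and 0.19) and OsMADS57 (0.047 and 0.13), and OsZS_05G0330100 under quantile normalization (0.043). When 1 sample was left out, signs turned within -0.068 to 0.20 for OsMADS27, -0.14 to 0.10 for OsMADS31, -0.036 to 1.14 for OsMADS1, -1.93 to 0.47 for OsMADS51-like, -0.60 to 0.30 for OsMADS58, -0.065 to 1.33 for OsMADS7, -0.40 to 0.69 for OsMADS8 and -0.16 to 0.13 for OsMADS57; for OsMADS1, OsMADS7 and OsMADS8 only NIL-D replicate 3 did this. With fewer samples the fits have less power, and where 2 samples of a line remained the spread was pooled over both lines. The balance of all called genes turned from 57 higher and 81 lower to 75 and 62 with median-ratio rescaling and 72 and 54 with quantile normalization. Unknown depth limits the values under 1 TPM most.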

Other observations

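Several genes with best hits to MADS-box proteins lack the MADS domain in the deposited annotation and were not counted among the 74. OsZS_01G0669400, 1045 bp long and with the same best hit as the short OsMADS51-like model OsZS_01G0669100, was at 51.17, 53.58 and 45.43 TPM in replicates 1 to 3 of NIL-D, against 64.43, 85.85 and 48.32 TPM in those of NIL-X. In every sample but NIL-D replicate 3, where OsMADS14-like OsZS_04G0288900 was at 46.98 TPM, it lay above all 74 MADS-box genes. The lines overlapped. OsZS_10G0368700, with a K-box and a best hit to OsMADS56, was at 19.62, 15.57 and 24.42 TPM in NIL-D, against 16.45, 15.05 and 15.79 TPM in NIL-X, with NIL-D replicate 3 the highest sample. OsZS_03G0532700, with a best hit to OsMADS14 and a DnaJ domain, was at 22.26, 22.16 and 36.19 TPM in NIL-D, against 34.29, 32.54 and 33.88 TPM in NIL-X; its model of 3640 bp neighbours an OsMADS34-like gene. NIL-D replicate 3 was the lowest sample in OsZS_01G0669400. That sample was also the lowest in OsZS_03G0060800, at 2.75 TPM, OsZS_06G0362200, at 3.61 TPM, and OsZS_04G0485100, at 20.27 TPM. OsZS_04G0485100 is a MADS-box hit in only 1 of the protein databases, where the hit is to OsMADS31. Its annotated domains are adh_short_C2, adh_short and KR, and its best Swiss-Prot hit is to the Arabidopsis protein DECR2. All genes named in this paragraph were chosen after their values had been seen.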
